A study of Homo sapiens with 10 samples.

Results

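The genes described here encode CFLAR and the caspase-8 signalling complex: the caspase-8 regulator CFLAR, the initiator caspases CASP8 and CASP10, the adaptors FADD and TRADD, and the kinases RIPK1 and RIPK3. They were chosen by symbol, each matched 1 row of the count table, and together they are 7 of its 60898 rows. Their RNA was measured by sequencing in 10 libraries of neural progenitor cells (NPCs) whose source, H1, is an established line of human embryonic stem cells, in 5 groups of 2. The groups are STAMBP knockout cells given CFLAR (labelled STAMBP-KO+CFLAR, here KO+CFLAR), STAMBP knockout cells given STAMBP (STAMBP-KO+STAMBP, here KO+STAMBP), the STAMBP-KO lines KO1 and KO2, and wild type cells (WT). Every library title carries the code P3. STAMBP is a deubiquitinase of the endosomal sorting pathway, and the series asks what its loss does to the maintenance of NPCs. The labels do not say which line received a construct, how it was delivered, whether a line is 1 clone, or whether both libraries of a group are separate cultures. A p-value below therefore reflects only how these libraries spread, which may be technical.

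When a death receptor of the TNF receptor family is engaged, the adaptor FADD, directly or through TRADD and RIPK1, gathers caspase-8 through death effector domains, and caspase-8 is activated by pairing with itself. CFLAR, also called cFLIP, resembles caspase-8 without its protease activity; its short forms block activation and its long form forms a partly active pair with caspase-8. Where caspase-8 is not active, RIPK1 and RIPK3 can assemble into a complex that drives necroptosis, a lytic form of cell death, and in mice the loss of Casp8 or Fadd is lethal in the embryo unless Ripk3 is also lost.

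Levels are counts per 1000000 of the TMM-scaled library size (CPM), so that a difference of levels matches the fitted change. KO stands for the 4 libraries of KO1 and KO2, and KO vs WT for the mean of both lines set against WT. A gene is called where the Benjamini-Hochberg adjusted p was under 0.05 in edgeR's quasi-likelihood test over all 21063 tested genes. The targeted gene checks the labels. STAMBP was at 19.5, 16.9, 19.2 and 18.9 CPM in KO libraries and at 43.3 and 47.1 CPM in WT libraries (log2 fold change -1.28 ± 0.07 SE, adjusted p = 6.7e-10). The libraries labelled KO+CFLAR had 42.8 and 40 CPM, and KO+STAMBP had 40.4 and 45.2 CPM. The libraries labelled KO+CFLAR thus lacked the low STAMBP level of both knockout lines, and their CFLAR level, given below, was not above WT; directions drawn from them rest on their label. The sources used here do not say whether reads from either construct were counted.

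Each library held 16495116 to 20832700 counts. The groups differed in markers of other cell types, which were fixed as lists. Their calls are read beside all tested genes, of which 36.8% were called higher and 39.4% lower in KO vs WT. How many markers passed the low-count filter only through the knockout was not counted. In KO vs WT, 2 epithelial markers had 3 counts or fewer in a group. Of 14 epithelial markers 13 were higher in KO than in WT and 0 lower, and their summed level was 8610 to 9100 CPM in KO libraries and 33.5 to 35.8 CPM in WT, where KRT14 was at 0. Of 12 neural progenitor markers 2 were higher and 9 lower in KO, with sums of 3500 to 3540 CPM in KO and 7650 to 7740 CPM in WT, none of them at 0. Of 8 mesenchymal markers 5 were higher and 2 lower, with sums of 2080 to 2160 CPM in KO and 119 to 126 CPM in WT, none at 0. The neuron list fell in 10 of 10 genes, with sums of 691 to 715 CPM in KO, where NEUROD6 was at 0 in KO2, and 3840 to 3890 CPM in WT. The leukocyte list summed to 34.9 to 40.5 CPM in KO and 1.16 to 1.17 CPM in WT; 4 of its 8 genes were tested, of which 3 rose and the pan-leukocyte gene PTPRC fell, and CD3E and TYROBP were at 0 in WT. The endothelial list (5 of 6 tested, 3 higher and 1 lower) summed to 29.9 to 32.2 CPM in KO and 8.66 to 9.77 CPM in WT, and the pluripotency list (4 of 6 tested, 3 higher and 0 lower) to 23.9 to 27.3 CPM in KO and 2.38 to 3.17 CPM in WT. The part of these shifts in the results below was not tested, and in bulk RNA fewer cells of a type and less RNA per cell cannot be told apart.

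Loss of STAMBP was accompanied by higher levels of every gene of the complex. The 6 genes that pass the low-count filter without the knockout libraries were all called higher in KO than in WT, in KO1 and KO2 alike. RIPK3 passed the filter only through its counts in the knockout and was also called. Against this background, 76.2% of all tested genes were called in KO vs WT, 36.8% higher and 39.4% lower; with KO1 alone against WT 35.6% were called higher, and with KO2 alone 35.8%. The median log2 change of the 6 genes was 3.41, against -0.14 over the 19506 tested genes that also pass without the knockout libraries, of which 33.6% were called higher; with RIPK3 the median of the 7 was 3.84, against -0.04 over all tested genes. The rises ran from 1.95-fold for RIPK1 to 18.9-fold for CASP10 among the genes detected in WT. Scaled by library size alone, which shifted the median of all genes by -0.18, the 7 calls and their direction stood. The 4 KO libraries lay above both WT libraries for each gene, as they did for 38.8% of all tested genes, so this separation is common in these data.

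**Figure D1:**
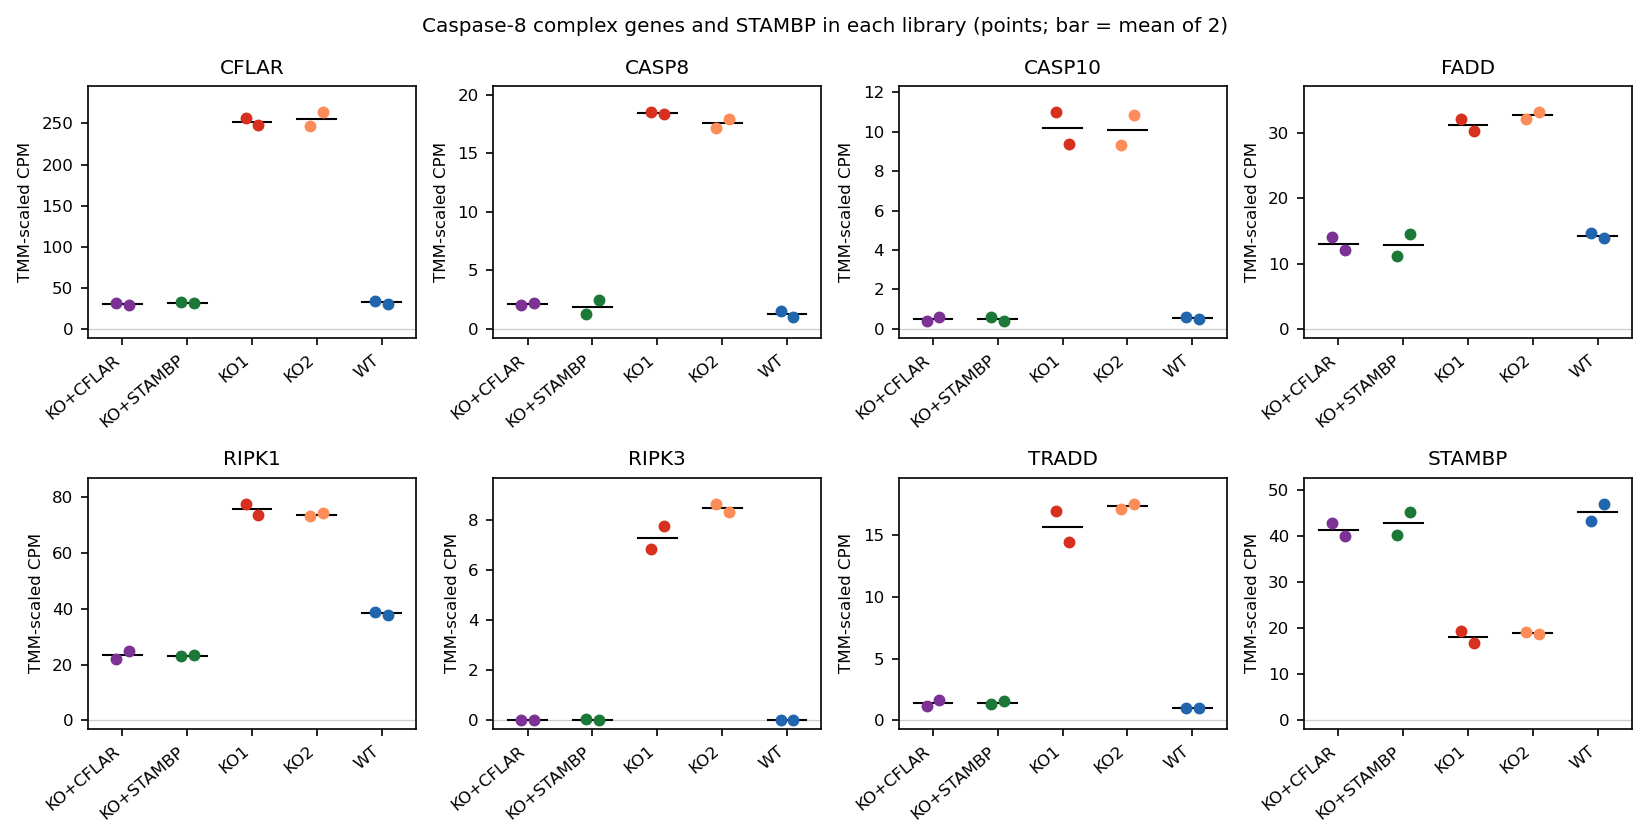
Level of each gene of the complex, and of STAMBP, in every library (TMM-scaled CPM, linear axis). Points are libraries and bars are group means. CFLAR sat between 246 and 264 CPM in the KO1 and KO2 libraries and between 29.4 and 34.1 CPM in the others; STAMBP showed the opposite order.

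CFLAR (ENSG00000003402; GRCh38 chromosome 2, 201116104 to 201176687, plus strand) had the most reads of the 7 genes in the knockout. It was at 256, 248, 246 and 264 CPM in KO libraries and at 34.1 and 30.3 CPM in WT libraries. The mean was 254 ± 8.1 CPM in KO (SD, n = 4) and 32.2 ± 2.68 CPM in WT (SD, n = 2), a 7.90-fold rise (log2 2.98 ± 0.05, adjusted p = 1.28e-15). Of all tested genes, 7.72% rose by more. The libraries labelled KO+CFLAR had 31.3 and 29.4 CPM of CFLAR and KO+STAMBP had 32.1 and 32.0 CPM, within the range of the WT libraries except for 1 library labelled KO+CFLAR that lay just under it. The row is a locus of a transcript assembly, and CFLAR has 25 annotated transcripts, so the level does not separate the long form from the short forms. The antisense gene CFLAR-AS1 shares 777 exonic bases with it, and with no strand setting stated their reads cannot be told apart; CFLAR-AS1 itself held 154 counts over the 10 libraries.

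CFLAR is a textbook target of NF-κB, and a κB motif lies in 1 of its 4 RefSeq promoter windows (GRCh38.p14, the 250 bases before each start). The 30 bases around it, chr2:201118609-201118638 on the plus strand, are shown because this is the single κB match among the 11 windows found for the complex; capitals mark the motif, 97 to 88 bases before the start, within an annotated exon of a longer transcript.
CFLAR κB site: cgcggggggcGGGGAATTCCgcagacagga
A κB motif stood in 9.96% of 35116 windows of the same length, searched on both strands. A GC box (GGGCGG), which stood in 42.6% of windows, overlaps its first bases. A match describes the letters and not a bound site.

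By the measure fixed for likeness, the root mean square difference in centred log2 CPM over the 10 libraries, the genes closest to CFLAR among 14271 compared were TXNRD1 (0.061), MAN2A1 (0.072), PAWR (0.079), EZR (0.081) and ESYT2 (0.085). TXNRD1, the cytosolic thioredoxin reductase, ran at 1120 to 1170 CPM in KO libraries and at 139 to 150 CPM in all others. PAWR, a pro-apoptotic leucine zipper protein, ran at 263 to 294 CPM in KO libraries and at 30.9 to 36.5 CPM in all others. In each of the 5 genes the 4 KO libraries lay above the other 6, as they did for CFLAR. Choosing genes by likeness to CFLAR over these libraries brings this about, so it is not a separate result.

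CASP8 (ENSG00000064012; chromosome 2, 201233443 to 201287711, plus strand), the initiator protease of the complex, was at 18.5, 18.4, 17.2 and 17.9 CPM in KO libraries and at 1.51 and 1.03 CPM in WT libraries. WT held 26 and 21 counts of it, so its level there is coarse. The mean of 18 ± 0.603 CPM in KO (SD, n = 4) against 1.27 ± 0.343 CPM in WT (SD, n = 2) was a 14.3-fold rise (log2 3.84 ± 0.21, adjusted p = 4.37e-10). The libraries labelled KO+CFLAR had 2 and 2.17 CPM and KO+STAMBP had 1.29 and 2.46 CPM, spread across and above the WT pair.

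CASP10 (ENSG00000003400; chromosome 2, 201182881 to 201229406, plus strand) is the closest relative of CASP8, present in humans and absent from mice. It was at 11, 9.37, 9.32 and 10.8 CPM in KO libraries and at 0.581 and 0.488 CPM in WT libraries, which held 10 counts each. The rise was 18.9-fold (log2 4.24 ± 0.25, adjusted p = 9.49e-10). In the libraries labelled KO+CFLAR it was at 0.419 and 0.589 CPM, and in KO+STAMBP at 0.618 and 0.374 CPM, so that all 6 libraries outside the knockout overlapped.

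The upstream window of CASP8 that lies outside annotated exons, chr2:201233213-201233442 (GRCh38.p14, plus strand), is printed because CASP8 and its neighbour CASP10 had rises larger than that of CFLAR beside them; capitals mark a STAT-type element (TTCNNNGAA, 200 to 192 bases before the start) and a GC box (96 to 91 bases before it).
CASP8 upstream window: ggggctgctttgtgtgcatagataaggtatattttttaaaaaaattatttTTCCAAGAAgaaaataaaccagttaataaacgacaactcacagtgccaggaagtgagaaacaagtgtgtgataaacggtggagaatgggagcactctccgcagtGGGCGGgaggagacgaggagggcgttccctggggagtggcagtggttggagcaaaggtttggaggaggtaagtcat
The STAT-type element stood in 6.57% of all windows, and among the windows of the complex only those of CASP8 held one. This window held no κB match, which says only that those letters are not in it. The other 2 CASP8 windows held a TATA box (TATAAA, 10.7% of all windows), 2 CAAT boxes (CCAAT, 32.0%) or an AP-1 motif (TGANTCA, 6.57%).

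FADD (ENSG00000168040; chromosome 11, 70203163 to 70207390, plus strand), the adaptor that brings caspase-8 to death receptors, changed less than the caspases. It was at 32.2, 30.3, 32.2 and 33.2 CPM in KO libraries and at 14.6 and 13.9 CPM in WT libraries, a 2.24-fold rise (log2 1.16 ± 0.10, adjusted p = 6.4e-08). Of all tested genes 18.9% rose by more. The libraries labelled KO+CFLAR had 14.1 and 12.0 CPM and KO+STAMBP had 11.2 and 14.5 CPM, around the WT values.

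TRADD (ENSG00000102871; chromosome 16, 67154180 to 67160298, minus strand), the adaptor that links TNFR1 to RIPK1 and TRAF2, had a rise nearer those of the caspases. It was at 17.0, 14.5, 17.2 and 17.6 CPM in KO libraries and at 0.988 and 1.03 CPM in WT libraries. The rise was 16.3-fold (log2 4.03 ± 0.19, adjusted p = 5.64e-11), with 17 and 21 counts in the WT libraries. Its level was 1.16 and 1.63 CPM with the KO+CFLAR label and 1.34 and 1.55 CPM in KO+STAMBP, all 4 above the WT pair. Neither rescue was called against WT, and the counts are low. How many of all tested genes separate in this way was not counted, so no difference from WT is read from it. FBXL8, on the opposite strand, shares 126 exonic bases with TRADD and held 257 counts in all, 201 of them in KO libraries, against 1096 TRADD counts in the same libraries.

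RIPK1 (ENSG00000137275; chromosome 6, 3063991 to 3115187, plus strand) is the kinase whose ubiquitination decides between survival signalling and death. It had the smallest rise of the 7 genes and was the one called below WT in both rescues. It was at 77.8, 73.5, 73.3 and 74.3 CPM in KO libraries and at 38.9 and 37.9 CPM in WT libraries, a 1.95-fold rise (log2 0.96 ± 0.06, adjusted p = 6.3e-10); 21.6% of tested genes rose by more. Both rescues, with 22 and 24.8 CPM under the label KO+CFLAR and 23.2 and 23.3 CPM in KO+STAMBP, lay below both WT libraries. How many of all tested genes separate in this way was not counted. Calls lower than WT covered 17.9% of tested genes with the label KO+CFLAR and 18.5% in KO+STAMBP. Its antisense neighbour AL031963.3 shares 238 exonic bases with it and held 169 counts in all.

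The RIPK1 window upstream of its first start, chr6:3063717-3063966 (GRCh38.p14, plus strand), overlaps no annotated exon and is shown because RIPK1 had the smallest rise and the lowest level relative to WT in the rescues. Capitals mark a CAAT box on the minus strand (209 to 205 bases before the start), 2 overlapping GC boxes (191 to 181) and a TATA box (30 to 25).
RIPK1 upstream window: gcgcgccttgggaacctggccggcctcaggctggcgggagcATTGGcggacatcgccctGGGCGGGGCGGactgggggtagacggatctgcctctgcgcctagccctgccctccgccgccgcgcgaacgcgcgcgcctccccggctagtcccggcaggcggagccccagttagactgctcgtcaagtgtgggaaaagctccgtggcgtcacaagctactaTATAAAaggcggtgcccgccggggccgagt
GC boxes were found in windows of all 4 genes that have a window in the RefSeq table, CFLAR, CASP8, FADD and RIPK1. These genes have 11 windows in all, and most have several. A GC box stood in 42.6% of single windows, and the share of genes with a GC box in any window was not counted. The other 2 RIPK1 windows overlap each other, lie wholly within annotated exons and share 1 IRF element (GAAA, any 2 bases, GAAA; on the minus strand), which was found in 3.02% of windows.

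RIPK3 (ENSG00000129465; chromosome 14, 24336021 to 24340045, minus strand), the kinase that carries necroptosis forward by phosphorylating MLKL, was detected almost only in the knockout. It had 124, 119, 131 and 144 counts in KO libraries, or 6.82, 7.75, 8.66 and 8.31 CPM, and 0 counts in both WT libraries. It had 0 counts in both libraries labelled KO+CFLAR and 1 and 0 counts in the KO+STAMBP libraries. A count of 0 in WT allows up to 0.0796 CPM, taking 3 counts over both libraries as the floor. RIPK3 was thus at least 99.0-fold higher in KO than in WT, and the floor covers counting error only. Because RIPK3 passed the low-count filter only through the knockout, its call in edgeR's test (adjusted p = 5.59e-09) adds no support. Of the 313 tested genes with 0 counts in WT, 32 had at least as many KO counts as RIPK3, itself included.

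With 2 libraries per line, no difference between the knockout lines was resolved in any of the 7 genes, which does not show that they agree. The KO1 and KO2 libraries did not overlap for CASP8, RIPK3 and TRADD, and overlapped for the other genes. How many of all tested genes separate in this way was not counted. With 2 against 2 libraries such a separation is often seen without a difference, so nothing is read from it. KO1 vs KO2 gave log2 differences between -0.22 (RIPK3, 7.28 ± 0.654 CPM in KO1 and 8.48 ± 0.247 CPM in KO2; SD, n = 2 each) and 0.07 (CASP8). None was called by edgeR, 0 of 7 had an unadjusted p under 0.05, and 0.157% of all tested genes were called. The rise of CFLAR was 7.85-fold in KO1 and 7.94-fold in KO2.

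The rescues were compared with the same 4 knockout libraries, to ask how far each gene returned; both comparisons share those libraries. The 6 genes that pass the low-count filter without the knockout libraries were all called lower in both rescues than in KO. RIPK3 was also called lower, but it passed the filter only through the knockout, so its fall adds no support. Of all tested genes 38.0% were called lower in the libraries labelled KO+CFLAR and 37.8% in KO+STAMBP. These shares include other genes that passed only through the knockout. CFLAR was at 12.0% of the KO level in the libraries labelled KO+CFLAR (log2 -3.06 ± 0.05, adjusted p = 7.1e-16) and at 12.6% in KO+STAMBP (-2.98 ± 0.05, adjusted p = 1.15e-15). CASP8 was at 11.6% and 10.4% of the KO level in the libraries labelled KO+CFLAR and in KO+STAMBP, CASP10 at 5.04% and 4.97%, and TRADD at 8.49% and 8.76%. FADD was at 40.8% and 40.2%, and RIPK1 at 31.3% and 31.1%. Marker lists moved beside this. The epithelial list summed to 56.1 to 58.5 CPM in the libraries labelled KO+CFLAR and 64.8 to 65.9 CPM in KO+STAMBP. Of its 14 genes 13 were lower than in KO in each rescue, and 0 and 1 were higher in the same order. The neural progenitor list summed to 4180 to 4240 and 4040 to 4050 CPM. Of its 12 genes 6 were higher and 5 lower than in KO in each rescue. The neuron list summed to 5850 to 5930 and 5870 to 5920 CPM, with 10 of 10 genes higher than in KO. The part of these shifts was not tested. RIPK3 was at least 114-fold lower in the libraries labelled KO+CFLAR than in KO. Its 1 count in KO+STAMBP, against 518 counts in KO, put it 299-fold lower there (95% counting interval 53.5 to 11800).

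Set against WT, RIPK1 alone was called in the rescues. It was at 61.0% of the WT level in the libraries labelled KO+CFLAR (log2 -0.71 ± 0.07, adjusted p = 1.58e-06) and at 60.6% in KO+STAMBP (-0.72 ± 0.07, adjusted p = 1.71e-06). Calls in either direction covered 33.7% of tested genes in KO+CFLAR vs WT (17.9% lower) and 34.9% in KO+STAMBP vs WT (18.5% lower), so 1 call lower among 7 is near the background; 9.56% and 10% of tested genes lay further below WT than RIPK1. CFLAR differed from WT by -0.08 ± 0.07 in the libraries labelled KO+CFLAR (adjusted p = 0.418) and by 0.00 ± 0.07 in KO+STAMBP (adjusted p = 0.996). Marker lists also differed between the rescues and WT. Of 12 neural progenitor markers 9 were lower and 1 higher than in WT in each rescue. Of 10 neuron markers 9 were higher in each, with 0 lower in the libraries labelled KO+CFLAR and 1 in KO+STAMBP. Of 14 epithelial markers 7 and 6 were higher, in the same order, and 1 lower in each. The part of these differences in the values against WT was not tested.

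CASP8 lay above WT without being called, by 0.74 ± 0.29 in the libraries labelled KO+CFLAR (91 counts against 47, adjusted p = 0.0669) and by 0.57 ± 0.30 in KO+STAMBP (71 counts against 47, adjusted p = 0.17). The first would be called with no low-count filter (adjusted p = 0.0449) or without KO+STAMBP replicate 1 (adjusted p = 0.0275) or 2 (adjusted p = 0.0279), and the second without KO+STAMBP replicate 1 (0.97, adjusted p = 0.0193). TRADD was 0.47 ± 0.27 above WT in the libraries labelled KO+CFLAR (adjusted p = 0.219) and 0.51 ± 0.27 in KO+STAMBP (adjusted p = 0.183). FADD differed from WT by -0.13 ± 0.12 and -0.15 ± 0.12 in the libraries labelled KO+CFLAR and in KO+STAMBP, and CASP10 by -0.07 ± 0.39 and -0.09 ± 0.41, with no call.

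The rescues were also set against each other, since only one carries CFLAR by its label. In KO+CFLAR vs KO+STAMBP, the libraries labelled KO+CFLAR averaged 30.4 ± 1.35 CPM of CFLAR and KO+STAMBP averaged 32.1 ± 0.0408 CPM (SD, n = 2 each; log2 -0.08 ± 0.07, adjusted p = 0.737). None of the 7 genes was called by edgeR, 0 had an unadjusted p under 0.05, and 1.09% of all tested genes were called.

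**Figure D2:**
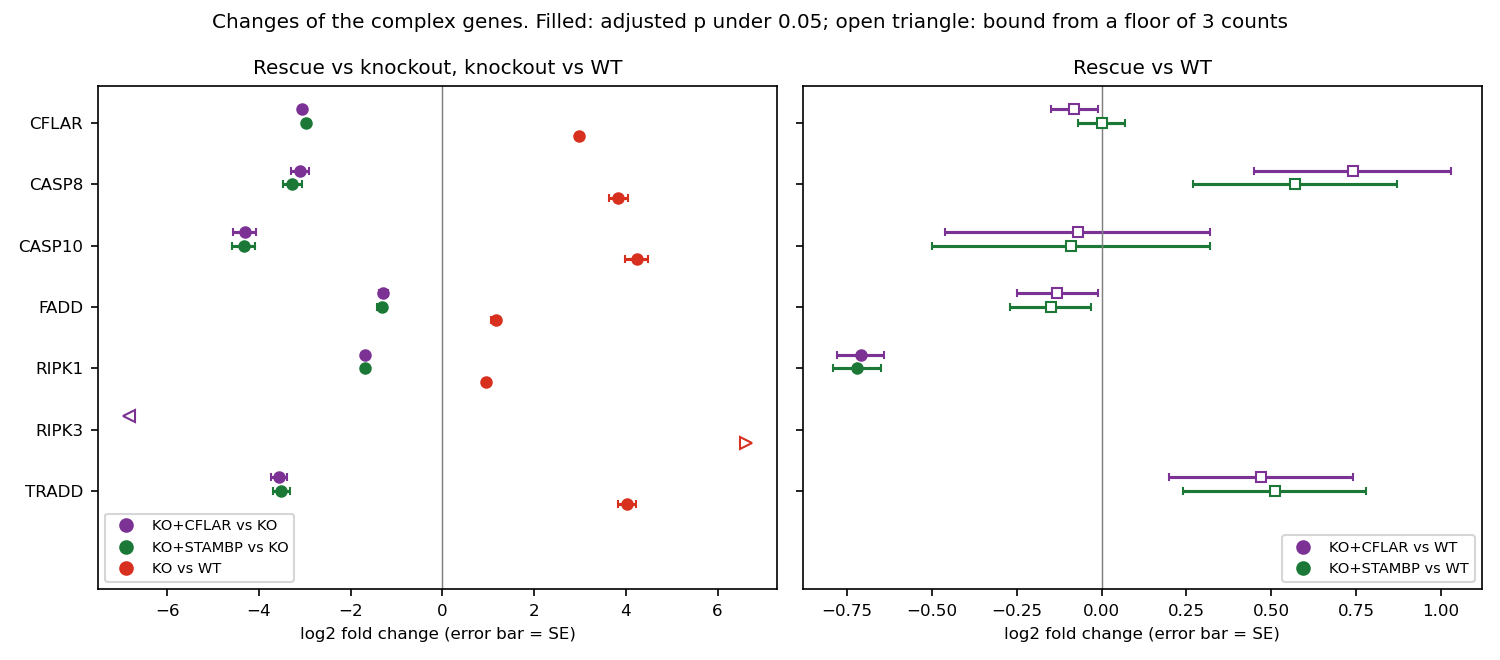
Log2 fold changes with SE for the rescues against KO and KO against WT (left) and the rescues against WT (right). Filled symbols were called at an adjusted p under 0.05. Triangles give the RIPK3 bound from a floor of 3 counts; RIPK3 in KO+STAMBP vs KO (1 count) and against WT is not drawn. RIPK1 lay below WT in both rescues, by -0.71 and -0.72.

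Because the proteins act by their proportions, the counts of CFLAR were divided by those of each other gene within a library, which needs no scaling between libraries. In KO there were 14.1 ± 0.531 CFLAR counts for each CASP8 count (SD, n = 4) against 26.1 ± 4.95 in WT (SD, n = 2). CFLAR rose less than the caspases and TRADD: its log2 ratio to CASP8 differed by -0.85 between KO and WT, that to CASP10 by -1.20 and that to TRADD by -1.02. It rose more than FADD and RIPK1, with 7.94 ± 0.222 counts for each FADD count in KO against 2.25 ± 0.106 in WT (difference 1.82) and 3.40 ± 0.11 for each RIPK1 count in KO against 0.838 ± 0.0536 in WT (difference 2.02). For each of these 5 ratios the KO and WT libraries did not overlap, and nor did they for 96.9% of 19306 genes set under CFLAR in the same way; the ratio was higher in all KO libraries for 92.3% of them and lower for 4.57%. The two-sided exact permutation test gave p = 0.0667, which is the smallest that 4 against 2 libraries allow over 15 splits, so it could not pass 0.05. In the libraries labelled KO+CFLAR the CFLAR to CASP8 ratio was 14.6 ± 1.51, and in KO+STAMBP it was 19.0 ± 8.4, against 22.6 to 29.6 in the WT libraries, a range that 1 KO+STAMBP library (24.9) shared. The CFLAR to RIPK1 ratio was 1.30 ± 0.167 in the libraries labelled KO+CFLAR and 1.38 ± 0.0037 in KO+STAMBP, between KO and WT. The ratio to TRADD was 22.5 ± 6.29 in the libraries labelled KO+CFLAR and 22.3 ± 2.31 in KO+STAMBP, against 32.1 ± 3.51 in WT. The ratio to CASP10 was 62.4 ± 17.6 with the label KO+CFLAR and 68.8 ± 23.9 in KO+STAMBP, around the WT value of 60.4 ± 2.4, and that to FADD was 2.34 ± 0.161 and 2.54 ± 0.455 in the same order, near the WT value of 2.25 ± 0.106 (SD, n = 2 each).

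**Figure D3:**
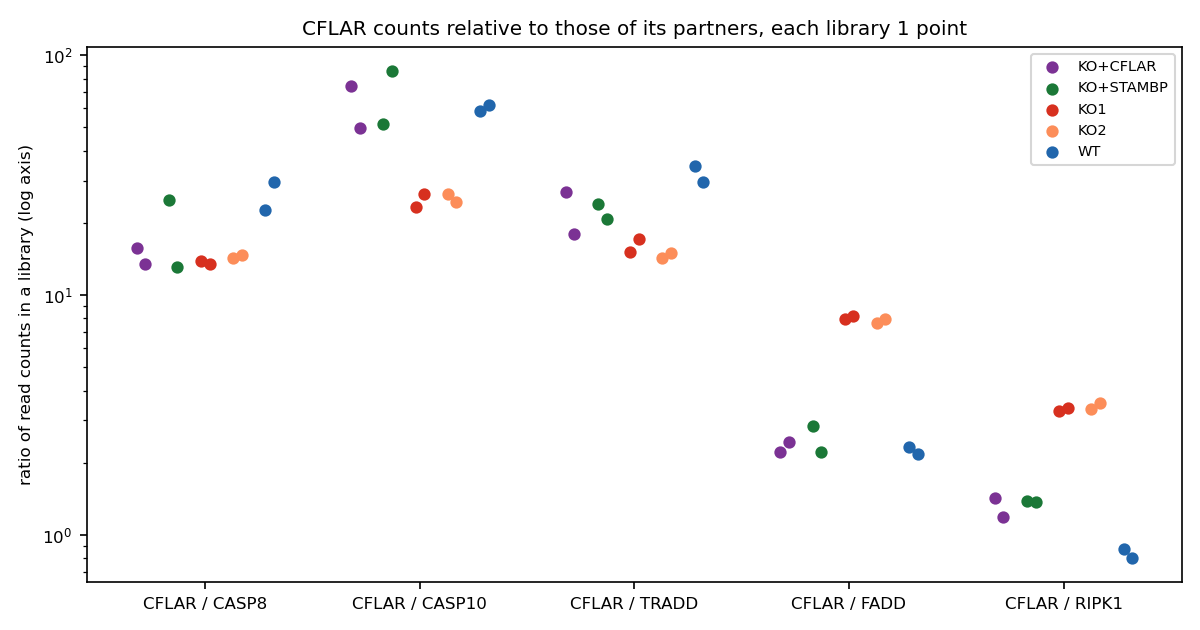
CFLAR read counts divided by those of each partner in the same library (log axis), with 1 point per library. The ratios to CASP8, CASP10 and TRADD were lower in KO1 and KO2 than in WT, and those to FADD and RIPK1 were higher; RIPK3 is left out because WT had 0 counts.

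Levels of different genes can be compared only per length. In CPM per kb of exon, counting every annotated exonic base, RIPK1 was at 17.7 ± 0.49 and FADD at 17.4 ± 0.668 in KO (SD, n = 4), with WT levels of 9.08 ± 0.175 and 7.76 ± 0.28 (SD, n = 2). RIPK1 and FADD do not differ beyond their spread in KO. CFLAR followed with 11.3 ± 0.359 CPM per kb in KO and 1.43 ± 0.119 in WT, then TRADD with 6.45 ± 0.555 in KO and 0.392 ± 0.0104 in WT. CASP8 (2.49 ± 0.0835) and RIPK3 (2.42 ± 0.246) were alike within their spread in KO, above CASP10 (1.33 ± 0.12). This order depends on the length used. For CFLAR the annotated exons cover 22529 bases but the median coding transcript is 1214 bases long, and by that length, chosen after seeing the data, it came first in every group, at 209 ± 6.66 CPM per kb in KO and 26.5 ± 2.21 in WT. By the same length CASP8 was at 14.1 ± 0.474 CPM per kb in KO, above TRADD (8.92 ± 0.768) and RIPK3 (6.26 ± 0.636), so that the order of TRADD and CASP8 turned round and CASP8 and RIPK3 stood apart. Of the summed level of the 7 genes per exonic length, CFLAR made up 18.6 to 19.5% in KO libraries and 7.29 to 7.83% in WT libraries. Per coding transcript length it made up 74.4 to 75.1% in KO libraries and 57.3 to 58.8% in WT libraries. The share of RIPK1 was 29 to 30.7% in KO and 47.6 to 48.5% in WT by exonic length, and 6.4 to 6.86% in KO and 20.3 to 21.7% in WT by transcript length. Under both lengths the share of CFLAR was higher in KO than in WT. That of RIPK1 was lower, which any choice of lengths would give because RIPK1 had the smallest rise of the 7 genes.

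CFLAR, CASP10 and CASP8 lie side by side on chromosome 2 in one orientation, so the listed genes around them were examined. Of 13 neighbours matched in the table, 4 were called higher and 5 lower in KO than in WT, or 3 and 6 with library size alone as the scaling. Of all tested genes 36.8% were called higher and 39.4% lower, so these counts are near the background. The called changes ran from -0.94 ± 0.06 (TMEM237, a ciliary transition zone protein, at 28.5 CPM in KO and 54.7 CPM in WT) to 0.49 ± 0.09 (NDUFB3, a subunit of respiratory complex I, at 26.6 CPM in KO and 18.9 CPM in WT). FAM126B was at 53.6 CPM in KO and 39.8 CPM in WT (log2 0.43 ± 0.06), and STRADB, a pseudokinase that binds LKB1, at 28.8 CPM in KO and 42.6 CPM in WT (-0.57 ± 0.08). The nearest gene beyond CASP8, FLACC1, was at 0.535 CPM in KO and 0.477 CPM in WT and was not called. CFLAR-AS1, inside CFLAR, was at 1.24 CPM in KO and 0.549 CPM in WT (log2 1.19 ± 0.58, adjusted p = 0.0743). The 3 genes of the complex thus had changes of 2.98 to 4.24 on the log2 scale, all above every listed neighbour.

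**Figure D4:**
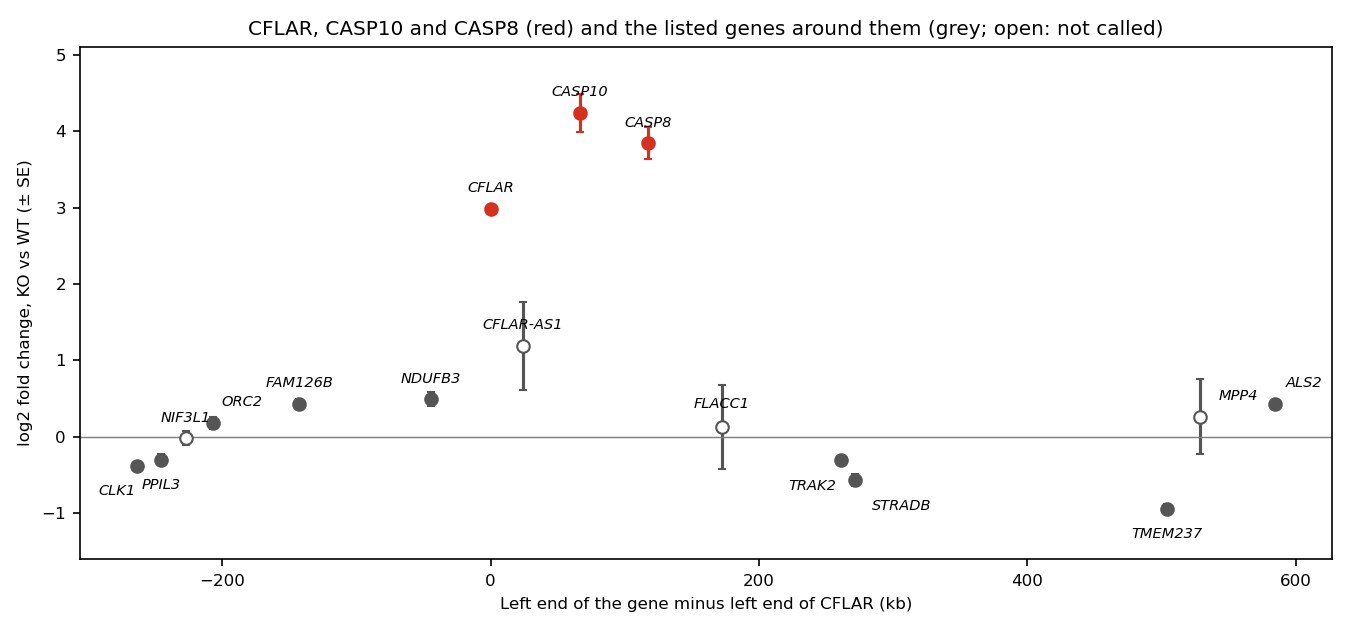
Log2 change in KO vs WT with SE, against the distance of each gene's left end from that of CFLAR in kb. Red points are CFLAR, CASP10 and CASP8, grey points are the other listed genes, and open points were not called; called neighbours ran from -0.94 to 0.49.

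Most tested death receptors and ligands were also higher in KO than in WT, with exceptions. Of 12 death receptors and ligands, 10 were tested. In KO 8 were higher than in WT and 2 lower (the same with library size alone as the scaling), with a median log2 change of 3.66. Of all tested genes 36.8% were called higher, and 33.6% of those that also pass the filter without the knockout. Of the 8, TNF and TNFSF15 passed the filter only through the knockout. Without them 6 were higher and 2 lower, with a median of 3.08. FAS, the receptor of FAS ligand, was at 41.9 CPM in KO and 2.72 CPM in WT (log2 3.93 ± 0.12). The TRAIL receptor TNFRSF10A was at 19.7 CPM in KO and 1.06 CPM in WT (4.2 ± 0.21), and the decoy receptor TNFRSF10C at 20.8 CPM in KO and 0.53 CPM in WT (5.27 ± 0.18). TNFSF15, a ligand of the receptor TNFRSF25, was at 97.5 CPM in KO and 0.457 CPM in WT (7.73 ± 0.15). The 2 that fell were TNFRSF25 itself (-0.53 ± 0.09) and TNFSF10, which encodes TRAIL (-2.41 ± 0.40); these 2 are named outside the rule, after their values were seen. FASLG had 3 counts in KO and 0 counts in WT and was not tested.

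Of 23 genes of the ubiquitin and kinase control of RIPK1, 21 were higher in KO, 1 lower and 1 not called. With library size alone as the scaling 20 were higher and 2 lower. Of all tested genes 36.8% were called higher, and 33.6% of those that also pass the filter without the knockout. BIRC3 passed the filter only through the knockout, and without it 20 were higher and 1 lower. The median change was 0.79, or 0.71 without BIRC3. The largest was BIRC3, the ubiquitin ligase cIAP2, at 125 CPM in KO and 0.287 CPM in WT (log2 8.70 ± 0.12). TNFAIP3, the ubiquitin-editing enzyme A20, was at 138 CPM in KO and 3.32 CPM in WT (5.39 ± 0.10), and its partner TNIP1 at 270.0 CPM in KO and 37.6 CPM in WT (2.84 ± 0.05). IKBKE, an IKK-related kinase, was at 36.8 CPM in KO and 5.71 CPM in WT (2.69 ± 0.11). Against WT, 2 of the 23 were called higher and 7 lower in the libraries labelled KO+CFLAR, and 0 higher and 7 lower in KO+STAMBP, beside 17.9% and 18.5% of all tested genes called lower. BIRC3 and TNFAIP3 were not called against WT in either rescue, and TNIP1 and IKBKE were called lower in both. TNIP1 differed from WT by -0.75 ± 0.07 in the libraries labelled KO+CFLAR and -0.68 ± 0.07 in KO+STAMBP, and IKBKE by -1.47 ± 0.17 and -1.73 ± 0.18 in the same order.

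Of 11 listed partners of RIPK3 in necroptosis, 10 were tested and 9 were higher in KO, with 0 lower and a median change of 0.71. With library size alone as the scaling it was 8 higher and 1 lower. Of all tested genes 36.8% were called higher, and 33.6% of those that also pass the filter without the knockout. MLKL, the pore-forming substrate of RIPK3, had 207 counts in KO and 3 counts in WT, a ratio of 39.4 once scaled to depth (95% counting interval 13.3 to 193), and passed the filter only through the knockout; without it 8 of 9 were higher, with a median of 0.69. It is named outside the rule. The adaptor TICAM1 was at 37.7 CPM in KO and 1.10 CPM in WT (log2 5.07 ± 0.13), and the receptors TLR4 and TLR3 changed by 4.46 ± 0.21 and 2.95 ± 0.29. The chaperone partner CDC37 was at 163 CPM in KO and 98.2 CPM in WT (0.73 ± 0.04). The RNA and DNA sensor ZBP1 had 7 counts in KO and 1 count in WT and was not tested.

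Downstream genes moved both ways, as did all tested genes (36.8% called higher and 39.4% lower in KO vs WT). Of 11 caspase-8 substrates and executioners, 6 were higher and 3 lower in KO (5 and 3 with library size alone as the scaling), with a median change of 0.25. BID, which caspase-8 cleaves to reach mitochondria, was at 65.8 CPM in KO and 18.3 CPM in WT (log2 1.84 ± 0.07). GSDMD, a pore-forming gasdermin, was at 5.58 CPM in KO and 0.448 CPM in WT (3.61 ± 0.30) and passed the filter only through the knockout; without it 5 were higher and 3 lower, with a median of 0.15. PARP1, a nuclear substrate of executioner caspases, was at 82.6 CPM in KO and 420.0 CPM in WT (-2.35 ± 0.03).

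Of 10 other death effector domain and caspase-8 binding proteins, 5 were higher and 5 lower in KO (4 and 5 with library size alone as the scaling), with a median change of -0.07. PEA15, a death effector domain protein that binds ERK, was at 216 CPM in KO and 942 CPM in WT (log2 -2.13 ± 0.04), and HIP1 at 25.9 CPM in KO and 147 CPM in WT (-2.50 ± 0.05). NOL3, the apoptosis repressor ARC, was at 10.2 CPM in KO and 3.41 CPM in WT (1.58 ± 0.17), and DEDD2 at 33.6 CPM in KO and 15.3 CPM in WT (1.13 ± 0.07). The shares called higher in these lists are read beside the 36.8% of all tested genes called higher in KO vs WT.

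**Figure D5:**
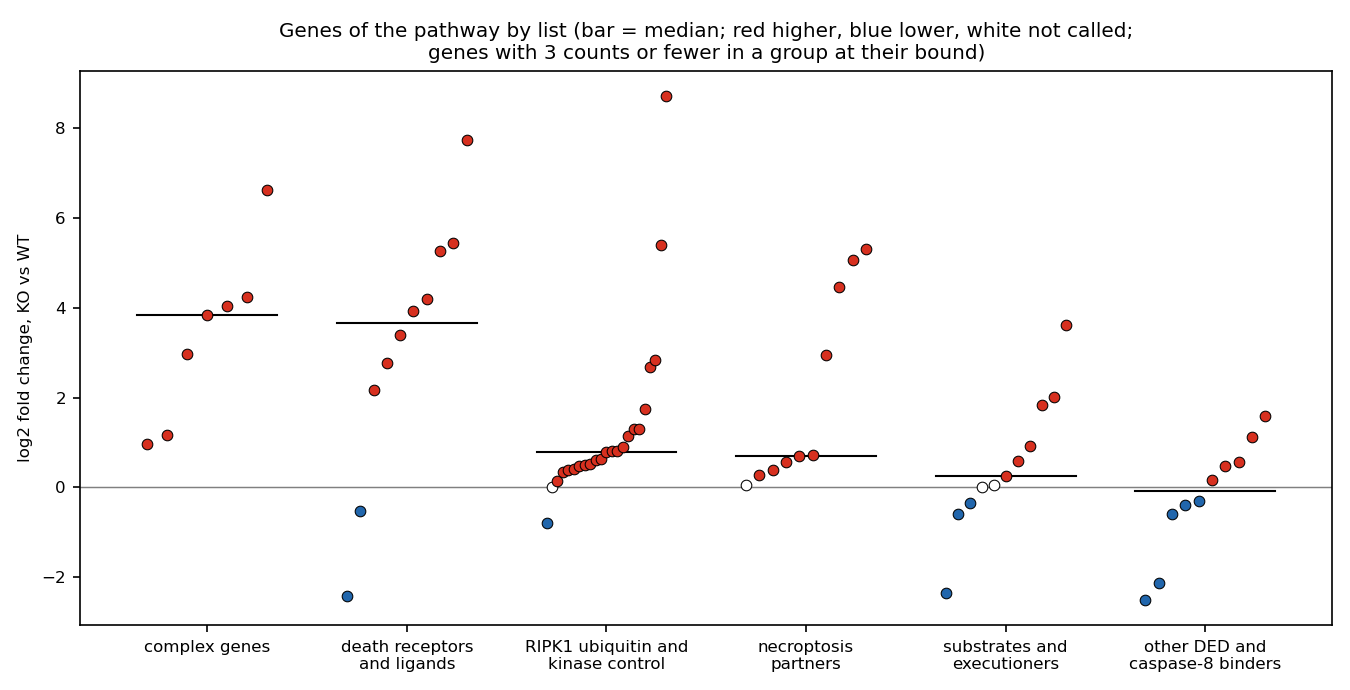
Log2 change in KO vs WT of the tested genes of each list, ordered by size within a list, with the median as a bar; red was called higher, blue lower and white not called. Genes with 3 counts or fewer in a group are drawn at their bound. The median was 3.84 for the complex, 3.66 for death receptors and ligands and -0.07 for other death effector domain (DED) and caspase-8 binding proteins. RIPK3, TNF and TNFSF15 passed the filter only through the knockout. Without them the median was 3.41 for the complex and 3.08 for death receptors and ligands.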

How the data were processed

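RNA was sequenced in 10 libraries from total RNA with an Illumina TruSeq kit, per the labels. The deposited values are raw counts of reads for each gene, in whole numbers. Tools and builds named in the submitters' processing notes are RSEM 1.2.4, fastp 0.20.0, DESeq2, GRCh38 and hg38; whether counts were rounded, the annotation release and the strand setting are not given in the sources used here, so reads of overlapping genes cannot be told apart.

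From these counts edgeR 4.0.16 (R 4.3.3) was fitted with TMM factors, filterByExpr and 5 group means over 10 libraries, leaving 5 residual degrees of freedom. SE is the change divided by the root of F. Positions, overlaps and lengths are from GENCODE release 29 on GRCh38, upstream windows from RefSeq GRCh38.p14. The 2 libraries of a group differed by a chi-square of 1.95 to 3.59 per gene, so none was a duplicate. The members and lists were chosen with earlier results of these data known, so the lists are not independent evidence. Beyond the complex, up to 4 called genes per list of largest change with a mean of at least 2 CPM and the 5 genes most like CFLAR are named; the result of 1 gene so chosen is not reported here, the text marks others, and overlapping or untested genes are named where they bear on a count. Alternatives included DESeq2 1.42.0, other scalings and filters, a replicate block and left-out libraries.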

Additional observations from a re-analysis of the deposited data

How the results depend on the processing

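For the 7 genes no direction of a called change reversed under DESeq2, median-of-ratios or library-size scaling, no filter or a filter of 50 counts in 2 libraries, a replicate block, only the groups compared, a fit without the libraries labelled KO+CFLAR, or any library left out. RIPK3 aside, the 6 genes were called higher in KO vs WT and lower in both rescues than in KO. This held under every setting that kept both libraries of each group compared. RIPK3 was called alike, but it passed the main filter only through the knockout, so its calls there add no support. The filter of 50 counts in 2 libraries also passed CASP8, CASP10 and TRADD only through the knockout. Of 21063 tested genes, 16055 were called in KO vs WT in the main fit, 15256 by DESeq2 and 16094 with library-size scaling. The exceptions concern CASP8 against WT. In KO+CFLAR vs WT the count of genes called higher was 0, and 1 with no filter; with libraries left out it ranged over 0 to 1. In KO+STAMBP vs WT it also ranged over 0 to 1, with 1 without KO+STAMBP replicate 1. A pseudocount of 5 in place of 0.5 moved the log2 CFLAR ratio in KO vs WT to -0.63 for CASP8, -0.73 for CASP10 and -0.75 for TRADD, whose WT counts are low. With libraries left out, the ratio ranged from -1.04 to -0.66 for CASP8 and from 1.95 to 2.08 for RIPK1. A RIPK3 ratio could not be given because WT had 0 counts. Library size alone as the scaling shifted the median of all genes by -0.18 in KO vs WT, 0.20 in KO+CFLAR vs KO and 0.21 in KO+STAMBP vs KO.

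Same-numbered replicates did not deviate together: over 10 pairs of groups the correlation ran from -0.02 to 0.07. With the replicate number as a block in edgeR's test, CFLAR changed by 2.98 in KO vs WT (adjusted p = 5.96e-15). No call of the 7 genes changed, and 16036 of 21063 tested genes were called in KO vs WT. Depth limits CASP8, CASP10, TRADD and RIPK3 outside the knockout, where libraries held 0 to 48 counts of each.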
